A study of Homo sapiens with 4 samples.

Results

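The genes of the cytosolic ribosomal proteins were followed in H1299 cells, a human lung carcinoma line, after treatment with ginseng nanoparticles or with phosphate-buffered saline (PBS). Members were the protein-coding genes named RPL or RPS, without the S6 kinases, pseudogenes, antisense transcripts and read-through genes. The rule left 86 of 61541 genes in the count tables: 46 proteins of the large subunit, 31 of the small subunit, 8 paralogues of the L type (RPL3L, RPL7L1, RPL10L, RPL22L1, RPL26L1, RPL36AL, RPL39L and RPS27L) and RPSA2, a further copy of RPSA. The 77 genes of both subunits are called the core genes here, and all 77 passed the filter on low counts, as did 7 of the 8 L-type paralogues.

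The nanoparticle group held 2 libraries of cells treated with ginseng nanoparticles, and the PBS group held 2 libraries of cells given PBS as the control. Both groups were grown in Dulbecco's modified Eagle medium with fetal bovine serum and penicillin-streptomycin, and RNA with a poly(A) tail was sequenced with strand information. The study asked how nanoparticles made from seeds, leaves, stems and roots of fresh ginseng act on the growth and migration of cancer cells. The labels give neither dose, exposure time nor plant part for these libraries. All libraries came from the same cell line, and nothing in the labels says that replicates were separate cultures, so a p-value here speaks of the spread among 4 libraries, a spread that may be technical.

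The cytosolic ribosome translates messenger RNA. Its small subunit (40S) decodes the message, and its large subunit (60S) joins the amino acids and passes the growing chain through the exit tunnel. Ribosomal protein genes are short, strongly expressed and needed in matched amounts, because each protein sits at a fixed place in the particle. Their messages usually begin with a cytosine and a run of pyrimidines, the TOP tract, through which LARP1 and the kinase complex mTORC1 control their translation and stability.

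The TOP tract is the sequence feature that sets these genes apart from most others, so the first bases of some members are shown. Each sequence spans 15 bases before and 15 bases from the annotated start, read 5′ to 3′ on the gene's strand, from RefSeq on GRCh38.p14. Capitals mark the pyrimidine run that opens at the start with a cytosine. Where RefSeq lists several starts, the one with the longest run is shown. The first 8 are core genes that passed the test described further on, and RPLP0 is the stalk protein with the smallest difference. RPL32, RPS26 and RPS29 also passed the test, have no such run at the start and are not shown. RPL22L1, RPL7L1 and RPS27L are L-type paralogues, and RPL7L1 and RPS27L have no such run at the start.

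RPL13: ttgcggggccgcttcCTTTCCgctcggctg
RPL26: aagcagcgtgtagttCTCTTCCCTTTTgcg
RPL35A: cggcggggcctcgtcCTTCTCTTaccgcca
RPL38: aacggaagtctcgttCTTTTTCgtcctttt
RPLP1: gtataggcgcgagagCCCCTTTCCTCagct
RPLP2: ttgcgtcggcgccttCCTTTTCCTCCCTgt
RPS19: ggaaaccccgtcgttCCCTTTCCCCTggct
RPS21: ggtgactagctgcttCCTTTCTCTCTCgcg
RPLP0: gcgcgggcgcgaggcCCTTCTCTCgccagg
RPL22L1: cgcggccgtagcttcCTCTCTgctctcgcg
RPL7L1: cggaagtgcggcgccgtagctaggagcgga
RPS27L: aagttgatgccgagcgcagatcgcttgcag

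These windows lie at chr16:89560667-89560696 on the plus strand for RPL13, chr17:8383179-8383208 on the minus strand for RPL26, chr3:197950175-197950204 on the plus strand for RPL35A and chr17:74203663-74203692 on the plus strand for RPL38. RPLP1 was read at chr15:69452803-69452832 (plus), RPLP2 at chr11:809952-809981 (plus) and RPLP0 at chr12:120201097-120201126 (minus). RPS19 was read at chr19:41860240-41860269 (plus) and RPS21 at chr20:62387088-62387117 (plus). RPL22L1 was read at chr3:170870181-170870210 (minus), RPL7L1 at chr6:42879601-42879630 (plus) and RPS27L at chr15:63157463-63157492 (minus).

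Of the 62 core genes with a sequence in the table, 46 (74.2%) had a start of C followed by at least 4 pyrimidines, against 5.14% of all 27305 genes there. The motif was read only at the annotated start and on the gene's strand. It was found in 9 of the 12 core genes that passed the test. Among the L-type paralogues, 1 of 6 genes had it, and among the mitochondrial ribosomal protein genes, 6 of 69. The hexamer CCGGAA, the core of a site bound by ETS factors, was searched on both strands of 300 bases around each start and lay in 51.9% of core sequences, 54.1% of those of mitochondrial ribosomal protein genes and 17.2% of all 35116. CACGTG, also searched on both strands, was found in 5.19% of core and 7.26% of all sequences, and TATAAA in 6.49% of core and 11.5% of all. A fixed spelling of the YY1 motif, searched in the same way, was found in 0 of the 77 core sequences, 11.8% of those of mitochondrial ribosomal protein genes and 0.849% of all. A match of letters is a description and not a site in use.

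Depth was 24979081 and 24863313 gene counts in the nanoparticle libraries and 22252686 and 22456882 in the PBS libraries. Vimentin and the keratins of simple epithelia were read in every library, with VIM at 2229 and 2186 CPM (CPM, the share of a library's gene counts after TMM scaling, multiplied by 1000000) with nanoparticles and at 2317 and 2388 CPM with PBS. KRT8 stood at 603 and 586 CPM with nanoparticles and 641 and 642 CPM with PBS, and KRT18 at 926 and 914 CPM with nanoparticles and 1018 and 1031 CPM with PBS. All 3 fell by the edgeR test described further on, with log2 fold changes of -0.092 for VIM, -0.11 for KRT8 and -0.16 for KRT18 (edgeR adjusted p = 0.0137, 0.0239 and 0.000526). All 3 still passed with the coding length trend removed. With the transcript length trend removed, or with length and GC trends removed, KRT18 alone among the 3 passed. Markers of other cells were near 0: the 6 blood genes summed to 0.799 and 0.723 CPM with nanoparticles and 0.494 and 0.671 CPM with PBS, with PTPRC and HBB at 0 counts. The 4 endothelial genes summed to at most 0.999 CPM and the 4 fibroblast genes to at most 1.39 CPM in any library.

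Of the 77 core genes 12 were slightly less abundant with nanoparticles than with PBS, and none was more abundant. None passed the test once the coding length trend was removed, and 0 or 1 passed with a library left out. Of the 46 genes of the large subunit 8 fell, and of the 31 of the small subunit 4 fell, while none rose (edgeR quasi-likelihood test with Benjamini-Hochberg adjustment over 15778 genes, threshold 0.05). Over all genes tested 0.83% fell, 131 genes, and 1.75% rose, 276 genes. With upper-quartile scaling 190 fell and 223 rose. The genes that fell were RPL13, RPL26, RPL32, RPL35A, RPL36, RPL38, RPLP1 and RPLP2 in the large subunit and RPS19, RPS21, RPS26 and RPS29 in the small subunit. The other 65 core genes did not pass the test.

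The log2 fold change of nanoparticle over PBS was below 0 for 76 of the 77 core genes, as for 49.8% of all genes tested. Its median was -0.077 in the large subunit and -0.074 in the small subunit, against 0.00056 over all genes tested, and the difference between the subunits was not tested. Both nanoparticle libraries lay below both PBS libraries for 42 of 46 genes of the large subunit and 29 of 31 of the small subunit, against 23.2% of all genes tested. An unadjusted p under 0.05 was reached by 66 core genes, against 16.8% of all genes tested. The groups overlapped for RPL15, RPL22, RPL36A, RPL7A and RPS10. In RNA from bulk cultures, fewer cells with a high level and less RNA in each cell cannot be told apart.

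**Figure D1:**
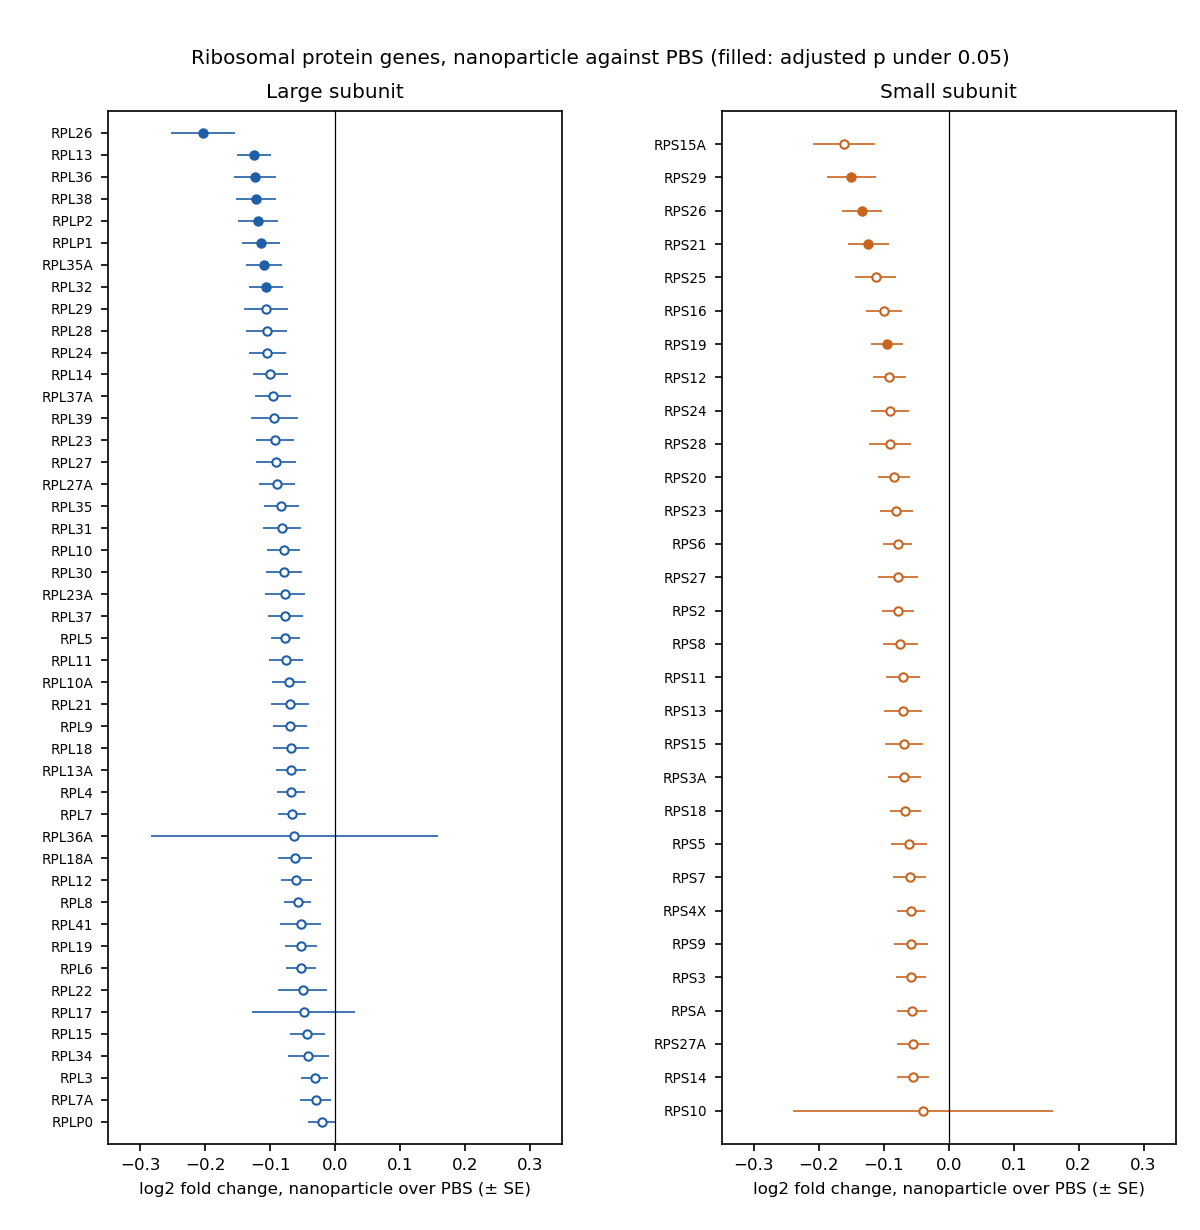
Log2 fold change (nanoparticle over PBS, ± SE from the edgeR fit) of the core genes reported here, large subunit left and small subunit right, in order of size. Filled points are the 12 genes past the adjusted threshold of 0.05, and all points shown lie left of 0.

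Together the large-subunit genes took 2.55% and 2.52% of the counts on genes in the nanoparticle libraries and 2.64% and 2.67% in the PBS libraries. The small-subunit genes took 1.55% and 1.53% with nanoparticles and 1.62% and 1.62% with PBS. Both shares were lower in each nanoparticle library than in either PBS library. The count ratio of large to small subunit was 1.645 and 1.642 with nanoparticles and 1.634 and 1.644 with PBS, so the groups overlapped in this ratio. With 2 libraries a group, an exact two-sided permutation test of such shares cannot give a p under 0.333, so none was run.

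Within the large subunit, RPL26, which lies at the rim of the exit tunnel, had the largest fall. It stood at 43.3 and 44.2 CPM in the nanoparticle libraries, against 51.5 and 49.4 CPM in the PBS libraries. The log2 fold change was -0.20 (SE 0.050, edgeR adjusted p = 0.0317), and the level fell by 13.2%. RPL26 covers bases 8377516 to 8383250 of chromosome 17 in GENCODE 29 on GRCh38.

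RPL13, a protein of the large subunit that is altered in a human skeletal dysplasia, is encoded on chromosome 16 from 89560657 to 89566828. It stood at 999 and 938 CPM with nanoparticles and at 1052 and 1060 CPM with PBS. Its log2 fold change was -0.12 (SE 0.026, edgeR adjusted p = 0.013). The nanoparticle libraries lay further apart than the PBS libraries, and both were below them. The log2 fold change was -0.079 when nanoparticle replicate 2 was left out.

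RPLP1 and RPLP2 are the acidic proteins of the stalk, the arm that recruits elongation factors. RPLP1 stood at 478 and 463 CPM with nanoparticles and at 498 and 520 CPM with PBS (log2 -0.11, SE 0.029, edgeR adjusted p = 0.038). RPLP2 stood at 306 and 304 CPM with nanoparticles and at 324 and 338 CPM with PBS (log2 -0.12, SE 0.031, edgeR adjusted p = 0.0421). In both genes, which are described here because they passed the test, the higher nanoparticle library stayed under the lower PBS library. RPLP0, which anchors these proteins to the particle, read 1340 and 1312 CPM with nanoparticles and 1346 and 1345 CPM with PBS, a log2 fold change of -0.021 that did not pass the test (edgeR adjusted p = 0.68). RPL12, at the base of the stalk, read 665 and 662 CPM with nanoparticles and 688 and 696 CPM with PBS (log2 -0.060, edgeR adjusted p = 0.211). Of the 4 stalk and base proteins 2 fell, with a median log2 fold change of -0.087, and whether members of the stalk differ from each other was not tested.

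RPL35A, a gene mutated in Diamond-Blackfan anaemia, a failure of red cell production, stood at 381 and 380 CPM with nanoparticles and at 412 and 409 CPM with PBS (log2 -0.11, SE 0.028, edgeR adjusted p = 0.037). RPL38, which in mice is needed for the translation of Hox messages, stood at 264 and 268 CPM with nanoparticles and at 285 and 293 CPM with PBS (log2 -0.12, SE 0.031, edgeR adjusted p = 0.0378). The remaining pair were RPL32 and RPL36, both structural proteins of the large subunit. RPL32 stood at 551 and 544 CPM with nanoparticles and at 584 and 595 CPM with PBS (log2 -0.11, SE 0.026, edgeR adjusted p = 0.0294). RPL36 stood at 254 and 242 CPM with nanoparticles and at 269 and 270.3 CPM with PBS (log2 -0.12, SE 0.032, edgeR adjusted p = 0.0468). In none of these 4 genes did the groups overlap. These genes, like the others past the threshold, were chosen by the test, so separate groups add nothing to it. Both nanoparticle libraries also lay below both PBS libraries in 71 of the 77 core genes and 23.2% of all genes tested.

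At the other end of the large subunit lay RPLP0, RPL7A and RPL3. RPL3, which reaches towards the peptidyl transferase centre, read 1354 and 1338 CPM with nanoparticles and 1380 and 1372 CPM with PBS (log2 -0.032, edgeR adjusted p = 0.469). RPL7A, a structural protein of the large subunit, read 1136 and 1112 CPM with nanoparticles and 1125 and 1171 CPM with PBS, so its groups overlapped (log2 -0.030, edgeR adjusted p = 0.567). RPL5 and RPL11 bind the 5S RNA and, outside the ribosome, the ubiquitin ligase MDM2. RPL5 read 902 and 897 CPM with nanoparticles and 939 and 958 CPM with PBS (log2 -0.077, edgeR adjusted p = 0.0798), and RPL11 read 550 and 542 CPM with nanoparticles and 574 and 576 CPM with PBS (log2 -0.076, edgeR adjusted p = 0.125). Neither passed the test, although their groups did not overlap.

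In the small subunit, RPS29, a zinc-binding protein of the head, stood at 112 and 109 CPM with nanoparticles and at 126 and 120 CPM with PBS. Its log2 fold change was -0.15 (SE 0.038, edgeR adjusted p = 0.037), and the level fell by 9.89%. RPS26, which contacts the message at its exit channel, is encoded on chromosome 12 from 56041351 to 56044697. It stood at 238 and 236 CPM with nanoparticles and at 259 and 262 CPM with PBS (log2 -0.13, SE 0.031, edgeR adjusted p = 0.0239). The nanoparticle libraries lay close to each other and under both PBS libraries.

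RPS21, a protein of the body, stood at 262 and 257 CPM with nanoparticles and at 280 and 286 CPM with PBS (log2 -0.12, SE 0.031, edgeR adjusted p = 0.0357). RPS19, the gene most often mutated in Diamond-Blackfan anaemia, stood at 713 and 690 CPM with nanoparticles and at 749 and 751 CPM with PBS (log2 -0.095, SE 0.025, edgeR adjusted p = 0.044). Neither gene showed an overlap between groups, which adds nothing to the test that chose them. RPS15A, also of the body, had the lowest log2 fold change of the small subunit, -0.16 (SE 0.048), from 49.5 and 50.7 CPM with nanoparticles and 57.2 and 54.9 CPM with PBS, but it missed the threshold (edgeR adjusted p = 0.08).

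**Figure D2:**
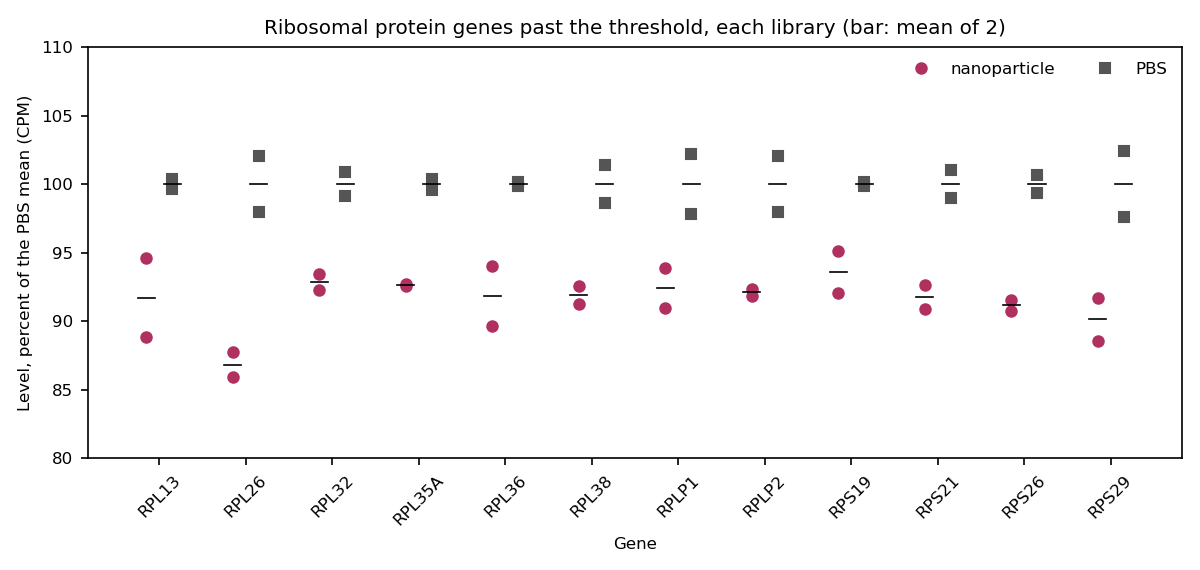
CPM of the 12 core genes past the threshold in each library, as percent of the gene's PBS mean, with bars at the group means of 2 libraries. Circles are nanoparticle libraries and squares PBS libraries, the axis starts at 80 percent, and no circle reaches the level of a square of the same gene. The genes were chosen by the test, so this separation adds nothing to it.

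RPS14, lost in a form of myelodysplasia, had a log2 fold change of -0.055, with 576 and 571 CPM under nanoparticles and 596 and 595 CPM under PBS (edgeR adjusted p = 0.272). RPS6, the substrate of the S6 kinases under mTORC1, read 879 and 872 CPM with nanoparticles and 919 and 931 CPM with PBS (log2 -0.079, edgeR adjusted p = 0.0721). RPSA, also known as the precursor of the laminin receptor, read 881 and 868 CPM with nanoparticles and 902 and 917 CPM with PBS (log2 -0.057, edgeR adjusted p = 0.207). For RPS6 and RPSA the groups did not overlap, and neither passed the test.

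By position in the particle, 1 of 9 genes of the exit tunnel and its rim fell (RPL26; median log2 fold change -0.077), as did 2 of 14 genes of the 40S head (RPS19 and RPS29; median -0.077) and 2 of 17 of the 40S body and platform (RPS21 and RPS26; median -0.074). None of these genes rose. Of the 19 ribosomal protein genes mutated in Diamond-Blackfan anaemia, 5 fell (RPL26, RPL35A, RPS19, RPS26 and RPS29), none rose, and the median was -0.083. Beside these counts stand 12 falls among all 77 core genes and 0.83% of all genes tested, and no difference between these lists and the other core genes was tested.

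These calls depended on all 4 libraries. Without nanoparticle replicate 1, 1 core gene passed (RPL13, log2 -0.17, edgeR adjusted p = 0.00975) of 200 genes in all (0.279% of all genes fell), and without nanoparticle replicate 2, no core gene passed of 76 in all (0.131% fell). Without PBS replicate 1 or PBS replicate 2, no gene at all passed with edgeR, while 51 and 38 core genes had an unadjusted p under 0.05 in these fits, against 9.65% and 10.2% of all genes. The log2 fold changes of the 12 genes lay between -0.234 and -0.0713 in these 4 fits, so every one of them kept its direction.

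Divided by coding length, the levels of the core genes spread widely. Over the 71 genes with at least 100 CPM in PBS, CPM per kb of coding length ran from 352 to 3356 with nanoparticles and from 364 to 3483 with PBS, with medians of 1055 and 1100. RPL22 was at the low end and RPL41, which encodes the shortest protein, at the high end in both groups. RPL41 has 75 coding bases in an annotated transcript of 699 bases, and reads from untranslated bases are counted too. A value per kb of coding length is therefore no measure of the number of transcripts. The median level per kb was 1055 in the large and 1048 in the small subunit with nanoparticles, and 1094 and 1113 with PBS.

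**Figure D3:**
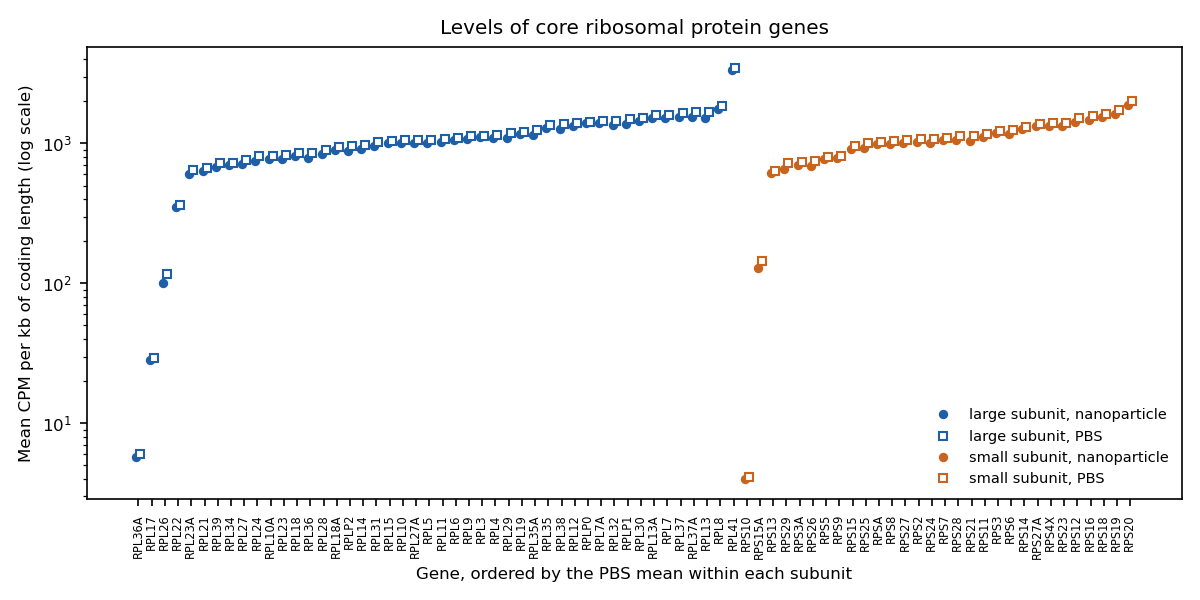
Mean CPM per kb of coding length (log axis) of the core genes reported here, ordered by the PBS mean within each subunit, with filled circles for nanoparticle and open squares for PBS means of 2 libraries. Among genes with at least 100 CPM the median is 1055 per kb with nanoparticles and 1100 per kb with PBS, and RPS10, RPL36A, RPL17, RPL26 and RPS15A lie under 150.

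Core genes under 100 CPM in PBS included RPL17, RPL26, RPL36A, RPS10 and RPS15A. In RPL17, RPL26, RPL36A and RPS10, from 59% of the exon bases (RPL26) to 77.6% (RPL36A) are shared on the same strand with another gene annotated in GENCODE 29, such as the read-through genes RPL17-C18orf32, RPL36A-HNRNPH2 and RPS10-NUDT3, whose own entries had 0 counts in all 4 libraries. Whether reads in those shared exons were left uncounted was not tested, and the levels of these genes, RPL26 included, may be partial counts. RPL36A read 1.68 and 1.97 CPM with nanoparticles and 2.201 and 1.61 CPM with PBS. RPS10, a head protein that is ubiquitinated when ribosomes collide, read 1.92 and 2.05 CPM with nanoparticles and 1.98 and 2.10 CPM with PBS. RPL17, at the exit tunnel, read 15.7 CPM in each nanoparticle library and 16.7 and 15.7 CPM with PBS. Pseudogene copies took 1.25% and 1.26% as many counts as the core genes with nanoparticles and 1.25% and 1.24% with PBS, and summing each gene with its annotated pseudogenes gave 9 and 4 falls in the large and the small subunit, against 0.816% of all genes. Reads that aligned to more than 1 place were listed apart from the gene counts. They made up 4.51% and 3.51% with nanoparticles and 4.75% and 4.64% with PBS. Reads ambiguous between genes were also listed apart, at 4.8% in every library. How many of these reads came from core genes or near-identical copies is not known here, so single members are less certain than their number.

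Within the family, shorter genes tended to have lower fold changes, although RPL41, the shortest, had a log2 fold change of -0.053. Over the 71 genes with at least 100 CPM, Spearman's rank correlation between coding length and log2 fold change was 0.567, as a description across genes that share 4 libraries. The 24 genes with 75 to 405 coding bases had a median of -0.093 and held 9 of the falls, the 24 with 408 to 582 bases had -0.071 with 1, and the 23 with 588 to 1281 bases had -0.067 with 1. The twelfth fall, RPL26, was under 100 CPM. The level in PBS also moved with the fold change (rank correlation 0.431).

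Longer genes also had higher fold changes across the transcriptome. Over 10540 tested genes above 5 CPM, the rank correlation between coding length and log2 fold change was 0.331, and the median ran from -0.050 in the shortest of 10 bins (75 to 546 bases) to 0.073 in the longest (3522 to 26769 bases). With this trend removed in each library, none of the 77 core genes passed the edgeR test, against 0.494% of all genes that fell by it, and 18 core genes had an unadjusted p under 0.05, against 14.6% of all genes. The median was then -0.038 in the large and -0.039 in the small subunit, against -0.0043 over all genes, and 74 of 77 core genes stayed below 0. The rank correlation among the 71 genes was then 0.0544. With the length of the annotated transcript in place of coding length, 6 genes of the large subunit fell (RPL13, RPL14, RPL27A, RPL28, RPL37 and RPL37A) against 0.665% of all genes, and none of the small subunit, where 5 had an unadjusted p under 0.05, against 13.4% of all genes. The medians were then -0.023 in the large and -0.020 in the small subunit. The 6 genes that fell have annotated transcripts of 3647 (RPL37A) to 7686 bases (RPL37), against a median of 1057.5 in the large subunit. Their coding lengths are 276 (RPL37A) to 645 bases (RPL14). Of these 6 genes only RPL13 passed the reported test. Whether these long transcripts are the ones made in these cells was not tested, and the calls rest on their lengths.

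**Figure D4:**
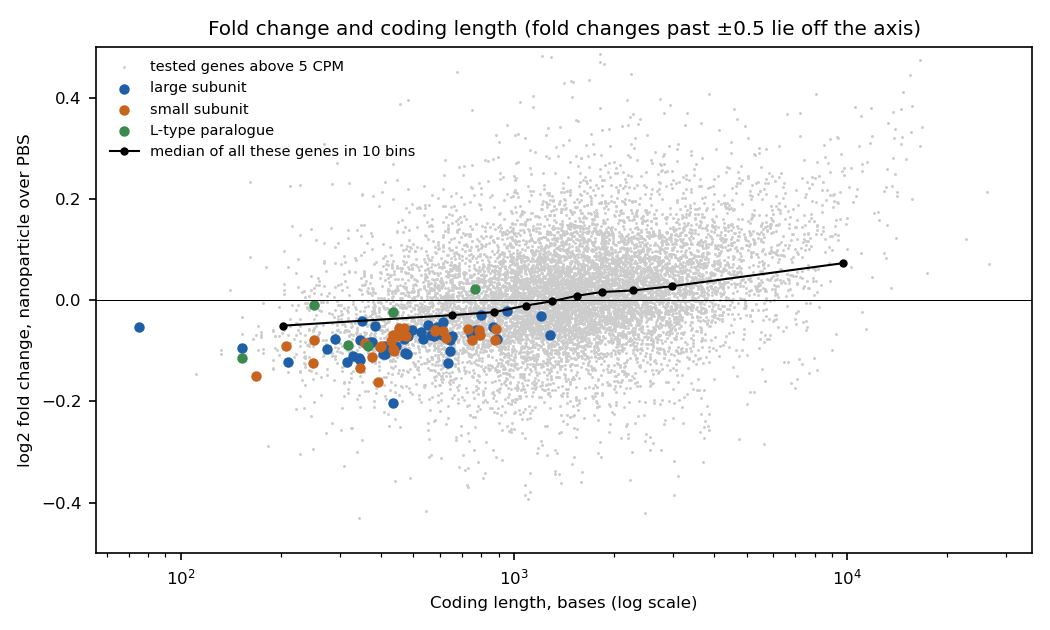
Log2 fold change (nanoparticle over PBS) against coding length in bases (log axis) for tested genes above 5 CPM in grey and for the ribosomal protein genes in colour, with the median of all these genes in 10 bins as a line. The line climbs from -0.050 to 0.073, and most core genes lie at the short end and under the line.

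None of the 7 L-type paralogues tested passed the edgeR test, and their log2 fold changes ran from -0.11 (RPL39L) to 0.023 (RPL7L1) with a median of -0.023. An unadjusted p under 0.05 was reached by 2 of them, against 16.8% of all genes tested. With DESeq2 and limma-voom none passed either. Paralogue and parent were each compared with PBS, and the difference between them was not tested.

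RPL39L, known from the testis, read 56.3 and 53.1 CPM with nanoparticles and 60.7 and 57.6 CPM with PBS (log2 -0.11, SE 0.049, edgeR adjusted p = 0.233). Its parent RPL39 read 104 and 104 CPM with nanoparticles and 110.1 and 112 CPM with PBS (log2 -0.094, edgeR adjusted p = 0.185). RPL36AL read 180 and 188 CPM with nanoparticles and 198 and 193 CPM with PBS (log2 -0.088, edgeR adjusted p = 0.198). In both paralogues the groups did not overlap. RPL36AL had many more counts than its parent RPL36A, but 77.6% of the exon bases of RPL36A are shared with another annotated gene. The count of RPL36A may therefore be partial, and which of the 2 genes is more abundant cannot be told here.

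RPL22L1, which can stand in for RPL22, read 46.6 and 48.2 CPM with nanoparticles and 51.7 and 49.2 CPM with PBS (log2 -0.091, edgeR adjusted p = 0.378). RPL22 read 134 and 136 CPM with nanoparticles and 145 and 135 CPM with PBS (log2 -0.050, edgeR adjusted p = 0.548). The paralogue's groups did not overlap, while those of its parent did.

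RPL7L1 was the most strongly counted paralogue, with 297 and 312 CPM in nanoparticle libraries and 303 and 296 CPM in PBS libraries (log2 0.023, edgeR adjusted p = 0.781). Its parent RPL7 read 1130 and 1132 CPM with nanoparticles and 1173 and 1196 CPM with PBS (log2 -0.067, edgeR adjusted p = 0.106). RPL26L1 read 95.6 and 99.6 CPM with nanoparticles and 99.7 and 98.6 CPM with PBS (log2 -0.023, edgeR adjusted p = 0.827), whereas its parent RPL26 is the gene with the largest fall. The groups overlapped for both paralogues.

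RPS27L read 33.6 and 35.5 CPM with nanoparticles and 37.0 and 32.5 CPM with PBS (log2 -0.0099, edgeR adjusted p = 0.962). Its parent RPS27 read 254 and 253 CPM with nanoparticles and 270 and 266 CPM with PBS (log2 -0.078, edgeR adjusted p = 0.193). RPL3L, known from heart and skeletal muscle, was barely counted, at 0.520 and 0.562 CPM with nanoparticles and 0.674 and 0.402 CPM with PBS (log2 0.0084, SE 0.388). RPL10L, known from the testis, had 0 counts in every library, which allows up to 0.12 CPM in the nanoparticle libraries and 0.135 CPM in the PBS libraries at 3 counts, for counting error alone. Its parent RPL10 read 654 and 637 CPM with nanoparticles and 672 and 692 CPM with PBS (log2 -0.080, edgeR adjusted p = 0.11).

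Further ribosomal proteins carry other names. FAU, which encodes a small-subunit protein fused to a ubiquitin-like domain, stood at 154 and 153 CPM with nanoparticles and at 171 and 170.0 CPM with PBS. It fell by 0.15 on the log2 scale (SE 0.033, edgeR adjusted p = 0.0152). RACK1, the scaffold on the head of the small subunit, read 1315 and 1294 CPM with nanoparticles and 1321 and 1343 CPM with PBS (log2 -0.030, edgeR adjusted p = 0.518). FAU did not pass without either nanoparticle library (edgeR adjusted p = 0.087 without replicate 1 and 0.221 without replicate 2), nor with the coding length trend removed (0.116).

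Other messages with a TOP tract, mostly translation factors, have a median of 1197 coding bases, against 456 in the core genes. None of the 18 tested passed the edgeR test, 7 had an unadjusted p under 0.05, against 16.8% of all genes, and the median log2 fold change was -0.046, against -0.077 in the core genes. With the coding length trend removed the order turned, with a median of -0.045 in the other TOP messages and -0.039 in the core genes, as it did with the transcript length trend removed (-0.041 and -0.021) and with length and GC trends removed (-0.049 and -0.025). None of these differences was tested. Of the other TOP messages, 0 fell with the coding length trend removed, against 0.494% of all genes. With the transcript length trend removed 1 fell (0.665% of all genes), and with length and GC trends removed 2 fell (0.824%). The elongation factors EEF1A1 and EEF2 were the most abundant. EEF1A1 read 3697 and 3635 CPM with nanoparticles and 3696 and 3854 CPM with PBS, and EEF2 read 2748 and 2678 CPM with nanoparticles and 2760 and 2807 CPM with PBS. Of the 8 host genes of small nucleolar RNAs that begin with a TOP tract, none passed, 1 had an unadjusted p under 0.05, and the median was -0.067. GAS5 read 170 and 177 CPM with nanoparticles and 181 and 180 CPM with PBS, and SNHG6 read 114 and 114 CPM with nanoparticles and 116 and 120.0 CPM with PBS.

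Among the genes that build ribosomes, few passed. Of 41 assembly factors of the small subunit none passed the edgeR test, 11 had an unadjusted p under 0.05, against 16.8% of all genes, and the median was -0.024. The methyltransferase FBL read 461 and 455 CPM with nanoparticles and 485 and 464 CPM with PBS, and NOP56, of the same particle, read 370 and 379 CPM with nanoparticles and 402 and 395 CPM with PBS. Of 56 assembly factors of the large subunit, RRS1, which helps to insert the 5S particle, fell and MDN1, a giant ATPase that remodels the precursor, rose, with 11 at an unadjusted p under 0.05 and a median of -0.015. Over all genes tested 0.83% fell and 1.75% rose. RRS1 stood at 192 and 192 CPM with nanoparticles and at 211 and 211 CPM with PBS (log2 -0.13, edgeR adjusted p = 0.0296). MDN1 stood at 119 and 126 CPM with nanoparticles and at 96.9 and 96.6 CPM with PBS (log2 0.34, edgeR adjusted p = 3.1e-05). MDN1 has 16788 coding bases, and with the coding length trend removed its log2 fold change was 0.095 and did not pass (edgeR adjusted p = 0.238). RRS1 did not pass without nanoparticle replicate 1 (edgeR adjusted p = 0.141) or replicate 2 (0.269), nor with the coding length trend removed (0.0546).

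Of 13 chaperones and importers of ribosomal proteins, the import receptor TNPO1 rose, at 293 and 307 CPM with nanoparticles and 267 and 274 CPM with PBS (log2 0.15, edgeR adjusted p = 0.0145, 0.322 without nanoparticle replicate 2 and 0.0592 with the coding length trend removed). Of 20 genes of ribosome surveillance, HUWE1, a ubiquitin ligase that marks unassembled ribosomal proteins, rose, at 361 and 372 CPM with nanoparticles and 302 and 325 CPM with PBS (log2 0.22, edgeR adjusted p = 0.000685). Beside these calls, 1.75% of all genes tested rose. HUWE1 has 13122 coding bases, and with the coding length trend removed its log2 fold change was 0.018 (edgeR adjusted p = 0.846). It also did not pass without nanoparticle replicate 2 (edgeR adjusted p = 0.0579).

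Beside 0.83% of all genes tested that fell, of 18 genes that control the making of ribosomal proteins, MYC, the factor that drives their transcription, fell. It stood at 222 and 231 CPM with nanoparticles and at 243 and 261 CPM with PBS (log2 -0.15, SE 0.037, edgeR adjusted p = 0.0296), and it also passed with the coding length trend removed (log2 -0.16, edgeR adjusted p = 0.0429). It did not pass with the transcript length trend removed (log2 -0.11, edgeR adjusted p = 0.189), with length and GC trends removed (0.182) or with DESeq2 (DESeq2 adjusted p = 0.0532), nor with any single library left out (edgeR adjusted p from 0.151 to 0.502). Of the 15 genes of RNA polymerase I and its factors none passed the edgeR test and 5 had an unadjusted p under 0.05, against 16.8% of all genes. UBTF read 219 and 223 CPM with nanoparticles and 240.0 and 228 CPM with PBS, and POLR1A read 163 and 161 CPM with nanoparticles and 152 and 153 CPM with PBS.

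Other housekeeping families were set beside the core genes. Of 76 tested genes of the mitochondrial ribosome 4 fell, MRPL15, MRPL36, MRPL41 and MRPL51, against 0.83% of all genes, none rose, and the median log2 fold change was -0.044. MRPL41 stood at 96.5 and 91.9 CPM with nanoparticles and at 108 and 106 CPM with PBS (log2 -0.19, edgeR adjusted p = 0.0108). Of 81 nuclear genes of oxidative phosphorylation 2 fell, ATP5MF and COX5A, none rose, and the median was -0.073. Of 37 proteasome genes none passed the edgeR test, 3 had an unadjusted p under 0.05, and the median was -0.016. With the coding length trend removed the medians were -0.015 for the mitochondrial ribosome, -0.035 for oxidative phosphorylation and 0.0026 for the proteasome, and no gene of these 3 families passed. At an unadjusted p under 0.05 the reported test had 16 of the 76 mitochondrial ribosomal genes and 35 of the 81 of oxidative phosphorylation, against 16.8% of all genes tested.

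Across the 17 other settings the medians of both subunits stayed below 0. They moved together, from -0.0895 (large) and -0.0872 (small) with upper-quartile scaling to -0.0229 and -0.0204 with the transcript length trend removed. At least 1 setting called 28 of the 77 core genes. Without a filter on low counts edgeR called no gene among 27535, with a lowest adjusted p of 0.544 and 52 core genes at an unadjusted p under 0.05, while DESeq2 called RPL13, RPL32 and RPS26 (0.209% of all genes fell). The 12 genes that fell in the reported test were among 23 core genes called with upper-quartile scaling (1.2% of all genes fell), 24 with a mean of at least 50 counts (1.69%), 22 with limma-voom (0.976%) and 21 with the replicate block (1.72%). With length and GC trends removed 7 core genes fell, against 0.824% of all genes. They were RPS23 and the 6 large-subunit genes that fell with the transcript length trend removed. The annotated transcripts of all 7 have at least 3437 bases.

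**Figure D5:**
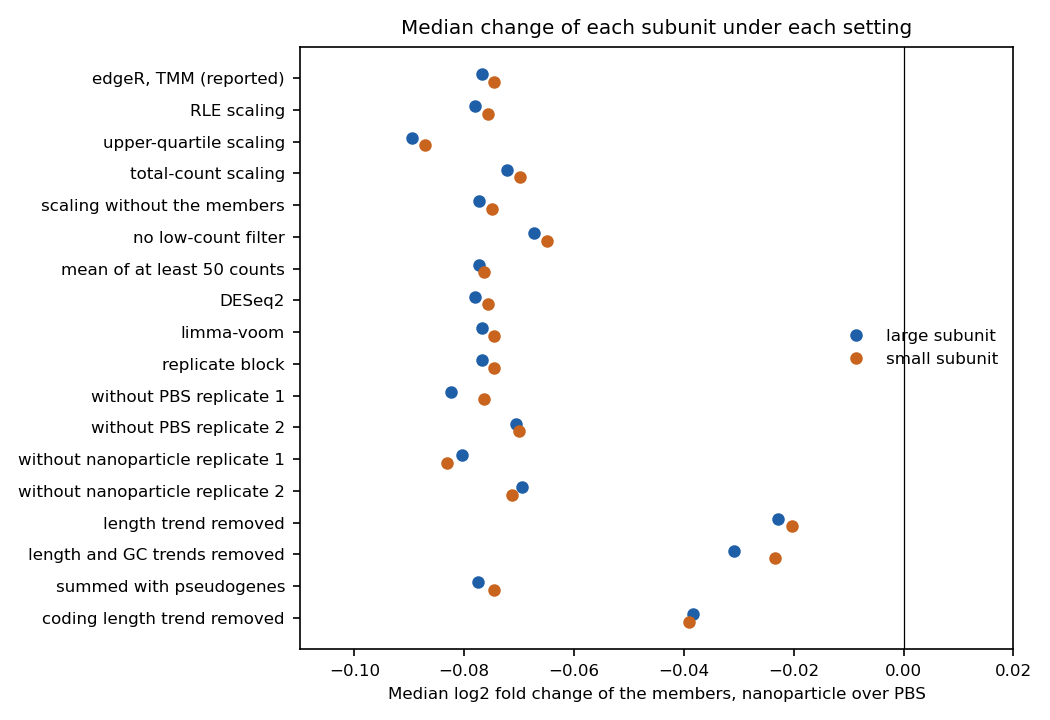
Median log2 fold change (nanoparticle over PBS) of the 46 large-subunit and 31 small-subunit genes under the reported test and 17 other settings. The medians of both subunits lie close to each other in every setting and left of 0, nearest to 0 where a length trend was removed.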

How the data were processed

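Counts of reads per Ensembl gene were deposited by the authors, 1 table per library, as whole numbers and not normalized. Each library started from 300 ng of RNA and a stranded mRNA kit, per the labels' protocols. Per the submitters' processing notes, the tools were HTSeq 2.0.2, STAR 2.7.6a, cutadapt 3.5, Picard and bcl2fastq 2.20, and the build was GRCh38. Neither the strand setting nor the gene annotation's release is given here, so reads of overlapping antisense genes may be included. Reads given to no gene, left out of all tests, made up 14.3% and 13.7% in the nanoparticle and 14.8% and 14.5% in the PBS libraries. Groups followed the treatment label, although the nanoparticle libraries have the word control in their titles.

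Genes were filtered with filterByExpr, scaled by TMM and tested with edgeR 4.0.16 (glmQLFit, glmQLFTest; R 4.3.3), two-sided, over all 15778 genes, with Benjamini-Hochberg adjustment at 0.05. The biological coefficient of variation was 2.46%. Replicates differed by more than sampling noise (chi-square per degree of freedom 2.05 for nanoparticle and 1.86 for PBS libraries). Symbols came from a gene name table for 61369 of 61541 genes and from GENCODE 29 for 159, and coordinates and lengths from GENCODE 29. Coding lengths were known for 12840 tested genes. Length trends were removed as offsets. For these, each gene's log2 CPM less its mean over the libraries was regressed on length in each library, over genes above 5 CPM. The fit was a robust regression in MASS 7.3.60.0.1 on a natural spline with 4 degrees of freedom. Other settings used DESeq2 1.42.0, limma-voom 3.58.1, other scalings and filters, a replicate block, each library left out, and pseudogene sums. The edgeR and limma-voom procedure was tested on simulated data.

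The members, the gene lists and the settings were chosen with earlier results of these data known, and the coding length setting was added after the transcript models had been seen. Values are given for core genes past the threshold, for the 3 lowest and 3 highest of each subunit, for all L-type paralogues with their parents, for stalk and 5S proteins, RPSA, RPS6, FAU and RACK1, and, from other lists, for up to 4 genes past the threshold or otherwise the 2 most abundant. Promoter sequences were found for 62 of 77 core genes and 6 of 8 L-type paralogues. Some items that the rule and the lists cover are not reported here. Figures were drawn with matplotlib 3.10.9.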

Additional observations from a re-analysis of the deposited data

How the results depend on the processing

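The number of genes called over all genes tested was 407, and it was 0 without a low-count filter, 124 with DESeq2, 759 with the replicate block, 227 with the length trend removed, 200 with the coding length trend removed, and 0 to 200 with 1 library left out. For the large subunit, 8 genes were called, against 14 with upper-quartile scaling, 0 without the low-count filter, 14 with a mean of at least 50 counts, 2 with DESeq2, 13 with limma-voom, 13 with the replicate block, 0 with the coding length trend removed and 0 to 1 with 1 library left out. For the small subunit, 4 genes were called, against 9 with upper-quartile scaling, 0 without the low-count filter, 10 with a mean of at least 50 counts, 1 with DESeq2, 9 with limma-voom, 8 with the replicate block, 0 with the length trend removed, 1 with length and GC trends removed, 0 with the coding length trend removed and 0 to 0 with 1 library left out. The core genes at an unadjusted p under 0.05 numbered 66 as reported, 53 with DESeq2 and 66 with limma-voom. No L-type paralogue was called under any setting.

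The median of the large subunit was -0.0768, and it moved by more than the spread between libraries to -0.0895 with upper-quartile scaling, -0.0229 with the length trend removed, -0.0309 with length and GC trends removed and -0.0384 with the coding length trend removed. The median of the small subunit was -0.0745, and it moved to -0.0872, -0.0204, -0.0234 and -0.0390 in the same order, and to -0.0649 without the low-count filter. With 1 library left out the medians ran from -0.0825 to -0.0695 in the large and from -0.0832 to -0.0700 in the small subunit. Genes outside the family moved as well. HUWE1 went from 0.224 to 0.212 with upper-quartile scaling and to 0.234 without the low-count filter, and KRT18 from -0.155 to -0.168 and -0.146. Apart from the trend removals, which take out the length slope by construction, the cause of these moves was not tested.

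Over the named genes, 790 of the values from other settings kept direction and side of the threshold, 214 lost the call, 8 gained it and 39 changed sign. No change of sign was in a gene called as reported. Only genes called as reported can lose a call, and the 790 include genes that passed in neither fit. These counts are therefore no measure of how stable the calls were. With the length trend removed the log2 fold change was 0.0117 for GAS5, -0.0287 for POLR1A, 0.0138 for RACK1, 0.00964 for RPL12, 0.0441 for RPL26L1, 0.0106 for RPL3, 0.013 for RPL36A, 0.0304 for RPL7A, -0.0031 for RPL7L1, 0.0247 for RPLP0, 0.0292 for RPS10 and 0.0246 for SNHG6. With length and GC trends removed it was 0.00249 for FBL, 0.00439 for GAS5, -0.0113 for POLR1A, 0.0113 for RACK1, 0.00834 for RPL12, 0.0346 for RPL26L1, 0.00965 for RPL3, 0.00846 for RPL36A, 0.0273 for RPL7A, -0.000414 for RPL7L1, 0.0235 for RPLP0, 0.0294 for RPS10, 0.00228 for RPS27 and 0.00715 for SNHG6. With the coding length trend removed it was 0.0186 for RPL26L1 and 0.0456 for RPS27L, and with upper-quartile scaling -0.00414 for RPL3L. With 1 library left out it ran from -0.0516 to 0.00662 for RPL26L1, -0.272 to 0.178 for RPL36A, -0.315 to 0.421 for RPL3L, -0.0125 to 0.0581 for RPL7L1, -0.0868 to 0.00659 for RPS10 and -0.101 to 0.0848 for RPS27L. None of these values passed the test.

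Libraries of the same number did not deviate together (correlation of deviations 0.0336 over 11104 genes). This value cannot tell whether libraries of the same number were prepared together, and the replicate block is given as a setting. Among the core genes the smallest change that passed was in RPS19, which fell by 6.40%. This is no limit of detection. RPS15A, 10.5% lower with nanoparticles, did not pass, and outside the family VIM passed at a log2 fold change of -0.092, against -0.095 in RPS19.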

Other observations

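RPSA2, a further protein-coding copy of RPSA kept apart from both subunits, read 8.19 and 8.92 CPM in the nanoparticle libraries and 9.79 and 9.34 CPM in the PBS libraries. Its groups did not overlap, its log2 fold change was -0.16 (SE 0.102), and it did not pass the edgeR test (adjusted p = 0.46). The count of a near-identical copy is uncertain, since reads can be shared with RPSA.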
